A study of Mus musculus with 28 samples.

Results

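Macrophages kept with interleukin-10 (IL-10) that had taken up no T cell were compared with macrophages kept without a polarizing cytokine (M0). The comparison uses 8 of the 28 poly(A) RNA libraries of the series, 4 IL-10 non-phagocytic and 4 M0, taken by their labels. The comparison itself was chosen with earlier results of these data known. All 28 came from wild-type mouse bone marrow derived macrophages, which are grown from marrow cells in culture. The IL-10 cells had 50 ng/mL of the cytokine for 48 h and the M0 cells had 48 h without a polarizing cytokine. The other 20 libraries were IL-10 or IFN-γ macrophages that had engulfed apoptotic regulatory (Treg) or conventional (Tconv) T cells, and IFN-γ macrophages that had not. Within each group that had engulfed T cells, the labels name different dyes on the T cells. In the study's design, macrophages shared the culture with T cells killed by ATP and NAD and marked with an anti-CD4 antibody, and were then sorted by uptake. The IL-10 libraries are labelled non-phagocytic, while the M0 labels give no uptake status, so the cytokine and any difference in sorting or co-culture cannot be told apart. The labels do not say whether replicates were separate animals or cultures, so p-values measure only the spread between these samples.

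IL-10 is a cytokine that restrains inflammatory gene expression in macrophages. It binds a receptor made of IL10RA and IL10RB, whose kinases JAK1 and TYK2 phosphorylate the transcription factor STAT3. STAT3 then raises transcription of targets such as Socs3, a feedback inhibitor of cytokine signalling, and of transcriptional repressors such as Bcl3, Nfil3, Etv3 and Sbno2.

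Values are TPM, a gene's share of the transcripts of its library corrected for length, divided by a scaling factor between -0.0177 and 0.0127 on the log2 scale, so levels can be set side by side between genes and libraries. Macrophage identity genes, 21 in all and none at 0 throughout, summed to 22100 to 22510 TPM in the IL-10 libraries and 24750 to 25400 TPM in M0. Lyz2, the most abundant member, was lower with IL-10, while of 20 tested members 13 were higher and 5 lower. Adgre1 (F4/80) averaged 810 ± 23.7 TPM (SD, n = 4) with IL-10 and 714 ± 15 (n = 4) in M0, and the M-CSF receptor Csf1r 929 ± 22.2 and 639 ± 40.6. Adgre1 and Csf1r are named outside the rule for naming genes. The first principal component held 52.1% of the variance and separated the groups. The second held 11.1%, with replicate 1 of both groups at 17.04 and 14.32 and the other 6 libraries between -6.73 and -3.16. Transcripts of T cells were present in both groups: 20 T cell markers without Cd28 and Il7r summed to 171, 65.4, 99.1 and 55.2 TPM in M0 replicates 1 to 4 and to 114, 104, 99.9 and 119 TPM in the IL-10 replicates. The groups overlapped in that sum. Cd28 and Il7r were left out by their level, which passed a set minimum in every library. With both included the sum was 207.2 to 222.5 TPM with IL-10 and 230 to 355.1 TPM in M0, without overlap. Relative depth, read from the steps of low TPM values, was 68.4 to 100% of the deepest library in M0 and 50.6 to 79.1% in the IL-10 group.

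Of 11883 genes tested, 3648 (30.7%) differed at an adjusted p under 0.05 (limma with Benjamini-Hochberg adjustment), 1935 of them (16.3%) higher in the IL-10 macrophages and 1713 (14.4%) lower. Such genes are called here. The counts of called list members below are to be read beside these shares over all genes. Most of these differences were small: 176 genes (1.48%) were higher and 79 (0.665%) lower by at least 1 on the log2 scale, which is taken of TPM plus 1. The median over all tested genes was 0.00. A gene entered with at least 1 TPM in 4 libraries, so 44 genes entered through the IL-10 libraries alone and 36 through M0 alone. Correlations over genes ran from 0.988 to 0.993 within the groups and from 0.975 to 0.978 between them. In 3853 genes (32.4%) all 4 libraries of one group lay above all 4 of the other. Without replicate 1 of both groups, 3131 genes were called.

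**Figure D1:**
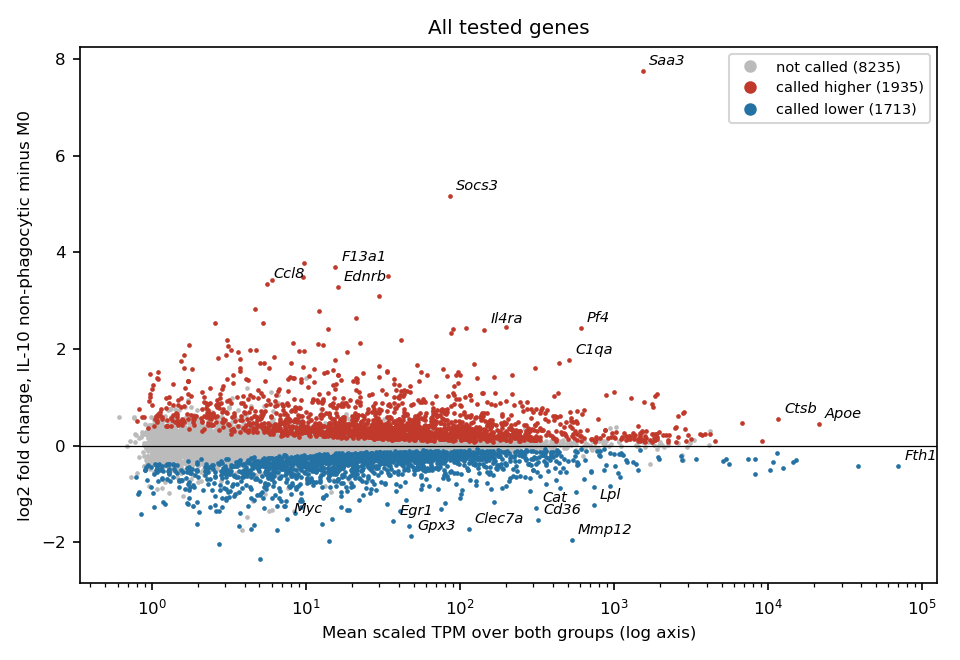
Each point is 1 of the 11883 tested genes, placed by its mean scaled TPM over the 8 libraries (log axis) and by its log2 fold change, IL-10 non-phagocytic minus M0. Red points were called higher (1935), blue points lower (1713) and grey points were not called, and Saa3 at 7.74 and Socs3 at 5.17 lie above all others.

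The acute phase gene Saa3 rose most of all tested genes. Saa3 encodes serum amyloid A3, an apolipoprotein-like protein made in inflammation by macrophages and other cells, and lies at chr7:46711998-46715700 on the minus strand (GRCm38). Its levels were 10.5, 17.9, 14.3 and 11.7 TPM in M0 replicates 1 to 4 and 2956, 3142, 3108 and 3080 TPM in the IL-10 replicates. No M0 library came near an IL-10 library, and the ratio of the group means was 226. The log2 fold change was 7.74 ± 0.13 (SE), with an adjusted p of 2.2e-10 in limma.

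Socs3 (chr11:117966079-117970047, minus strand) came next. The M0 replicates held 5.12, 3.06, 4.33 and 2.65 TPM, the IL-10 replicates 168, 161, 170 and 172 TPM. The groups lay far apart, with a ratio of means of 44.2 and a log2 fold change of 5.17 ± 0.14 (adjusted p = 7.15e-09 in limma).

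Several secreted or surface proteins were close to silent in M0 and clearly present in the IL-10 libraries. Ppbp, a platelet-type chemokine precursor, was at 0.427, 0.682, 0.472 and 0.223 TPM in M0 and at 17.1, 19.2, 21.0 and 18.1 TPM with IL-10. F13a1, the A subunit of coagulation factor XIII and a gene known from resident macrophages, went from 1.41, 1.40, 1.34 and 1.33 TPM to 28.7, 32.3, 30.3 and 27.0 TPM. Tnfsf14, the TNF family ligand LIGHT, averaged 0.754 ± 0.333 TPM in M0 and 18.5 ± 1.31 with IL-10, and the growth factor Nrg1 0.181 ± 0.0341 and 11.9 ± 1.97. In these 4 genes every IL-10 library was above every M0 library, as the rule for naming leading genes required. Their log2 fold changes were between 3.43 and 3.78. Ppbp and Nrg1 entered through the IL-10 libraries alone. The endothelin receptor Ednrb (3.29 ± 0.06), the leukotriene B4 receptor Ltb4r1 (2.55 ± 0.11) and the ectonucleotidase Entpd3 (2.54 ± 0.11) rose too. Entpd3 was listed at 0 in 2 M0 libraries and, like Ppbp and Nrg1, entered through the IL-10 libraries alone. Nxpe5 (3.09), Fcor (2.82), Ifitm1 (2.63), an interferon-induced membrane protein, and Wfdc17 (2.45) complete the leading rises, with Ccl8 (3.34), which is described among the chemokines. Cd300ld5 (2.78) ran from 0.566 to 5.74 TPM in M0, and its reads could have been split with near-identical Cd300 neighbours.

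The falls were smaller than the leading rises. Mmp12, macrophage elastase (chr9:7344381-7369499, plus strand), stood at 858, 828, 874 and 826 TPM in M0 and at 220, 224, 214 and 209 TPM with IL-10. M0 was 3.9 times higher (log2 fold change -1.96 ± 0.03, adjusted p = 1.5e-10 in limma). Gpx3, an extracellular glutathione peroxidase, fell from 76.4 ± 1.77 to 20.1 ± 1.63 TPM, and Gsta3, a glutathione transferase, from 23 ± 1.85 to 5.16 ± 1.14. Clec7a encodes dectin-1, the receptor for fungal β-glucan. It was at 183, 168, 179 and 170 TPM in M0 and 49.7, 54.7, 53.2 and 50.7 TPM with IL-10. Cd36, a receptor for oxidized lipid and apoptotic cells, was at 477, 477, 463 and 483 TPM in M0 and 174, 163, 162 and 151 TPM with IL-10. In both genes the groups were separated, as the naming rule required, with log2 fold changes of -1.73 ± 0.04 and -1.54 ± 0.04. The growth-response transcription factors Egr1 (-1.57) and Myc (-1.52), the cyclin-dependent kinase inhibitor Cdkn1c (-1.67) and the monoacylglycerol lipase Mgll (-1.68) fell by similar steps. The remaining leading falls were Matn2 (-1.76), Pilrb2 (-1.72), Tox2 (-1.65), Cgnl1 (-1.63), Mras (-1.41) and Akap2 (-1.40).

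**Figure D2:**
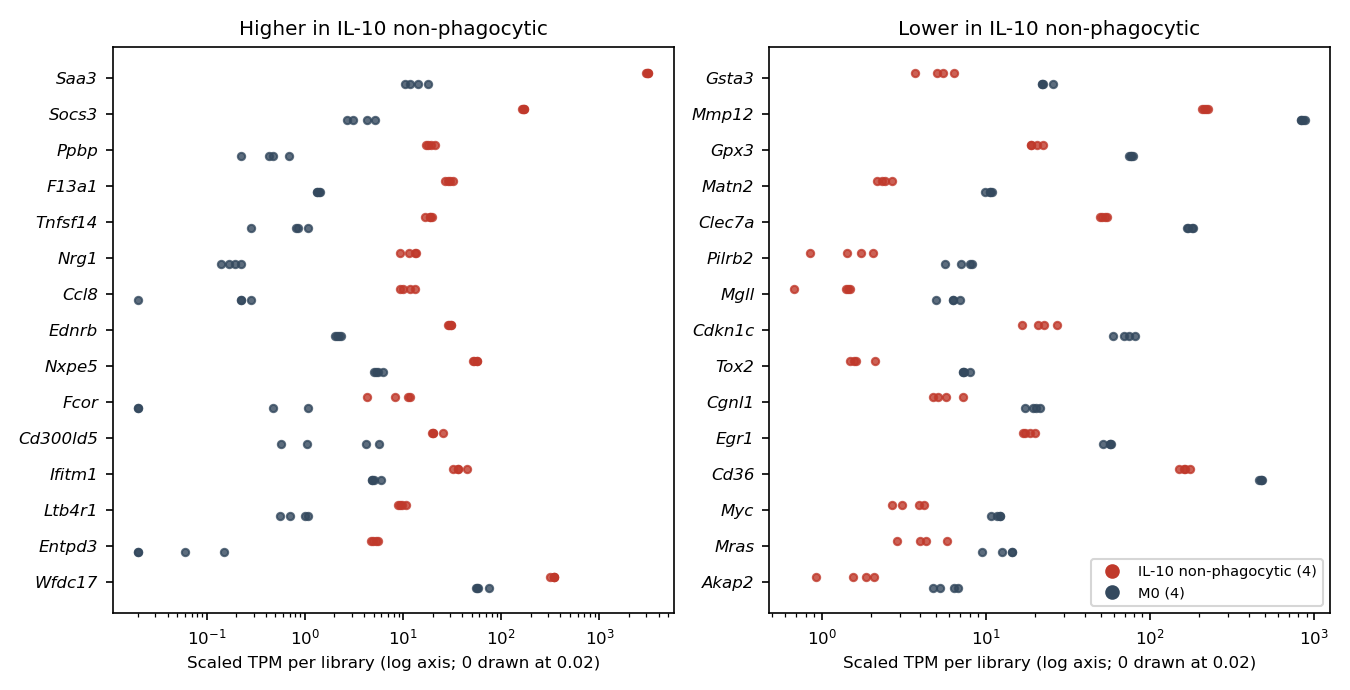
The 15 leading rises (left) and 15 leading falls (right), with the scaled TPM of each library on a log axis. Red points are the 4 IL-10 non-phagocytic libraries and dark points the 4 M0 libraries, values of 0 are drawn at 0.02, and in all 30 genes the groups do not overlap, as the naming rule required.

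Among the receptor and its signalling chain, Socs3 changed most. Of 17 tested genes of 19 listed, 8 rose and 1 fell, with a median log2 fold change of 0.16, while the fit of all 28 libraries called 5 higher and none lower. Il10ra, the ligand-binding chain, was at 79.6, 75.5, 80.1 and 78.1 TPM in M0 and 87.5, 92.9, 95.2 and 92.9 TPM with IL-10, a rise of 0.23 ± 0.04. Il10rb, the shared chain, had 162 ± 5.80 and 150 ± 3.68 TPM (-0.11 ± 0.03, adjusted p = 0.0308 in limma), and without IL-10 replicate 1, 3 or 4 its adjusted p was 0.0805, 0.0517 and 0.081. In the IL-10 groups that had engulfed T cells Il10rb averaged 151 and 152 TPM, above the 148 TPM of M0 on the same scale. Stat3 itself went from 52.8, 50.8, 55.6 and 58.6 TPM to 102, 118, 115 and 112 TPM. Every IL-10 library was above every M0 library, at 2.05 times the mean (log2 1.03 ± 0.06). Jak3, the kinase of the common γ chain receptors, rose by 1.34 ± 0.05. The kinases that serve the IL-10 receptor had adjusted p of 0.187 (Jak1, log2 0.06) and 0.585 (Tyk2, -0.03), both being named after their values were seen.

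Of 26 tested IL-10 and STAT3 target genes (29 listed) 20 were higher and 3 lower, with a median of 0.90 against 0.00 over all genes, and Arg2 and Il10 entered through the IL-10 libraries alone. Without replicate 1 of both groups 18 of 24 were higher and 3 lower. The list was drawn up with results of these data known, so its direction is not independent evidence.

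The interleukin-4 receptor chain Il4ra, the second largest rise of the list, had 45.9, 43.7, 45.1 and 45.7 TPM in M0 and 241, 236, 244 and 249 TPM with IL-10. The groups differed by 5.38 times and their SDs were 0.976 and 5.52 TPM (log2 2.40 ± 0.03, adjusted p = 8.4e-11 in limma). The repressor genes of the pathway rose together. Bcl3, a nuclear IκB protein, went from 24.8 ± 1.81 to 80.9 ± 4.19 TPM (1.67 ± 0.06), and Sbno2, a helicase-type co-repressor, from 50.1 ± 2.27 to 139 ± 3.60 TPM (1.46 ± 0.04). Nfil3, a bZIP repressor, went from 30.4 ± 0.633 to 77.9 ± 4.21 TPM (1.33 ± 0.04), and Etv3, an ETS family repressor, from 39.3 ± 0.753 to 74.3 ± 1.27 TPM (0.90 ± 0.03). Il10 was low in both groups, at 0.506, 0.181, 0.382 and 0.354 TPM in M0 and 1.79, 1.37, 1.46 and 1.66 TPM with IL-10, without overlap (0.93 ± 0.13). Il1rn, the interleukin-1 receptor antagonist, rose by 0.45 ± 0.12 (adjusted p = 0.0179 in limma, 0.0507 without IL-10 replicate 3). Members lower in the IL-10 libraries were Cd14, the lipopolysaccharide co-receptor (-0.38 ± 0.03), the phosphatase gene Dusp1 (-0.13, adjusted p = 0.104 in the fit of all 28 libraries) and the TNF receptor Tnfrsf1b (-0.12 ± 0.03).

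The sequence TTCNNNGAA, the palindromic core bound by STAT proteins, was searched in RefSeq promoter windows of GRCm38.p6 that hold 250 bases before and 50 after a start. It reads the same on both strands. Of 27025 genes with a window, 2582 (9.55%) held it, against 728 of 8902 tested genes (8.18%), 131 of 1483 called higher (8.83%) and 101 of 1327 called lower (7.61%). In the target list 5 of 22 genes held it (22.7%): Socs3, Sbno2, Fcgr1 and Zfp36, which rose, and Tnfrsf1b, which fell. Among the leading rises 2 of 14 with a window held it (Socs3 and Fcor), and among the leading falls none of 10. A match is a description of these letters, and binding was not measured. The windows of the 4 genes that rose are printed with the match in capitals to show its place in each, and Sbno2 has a match at each of 2 starts. The positions are chr11:117969317-117969616 for Socs3, chr10:80102653-80102952 and chr10:80101138-80101437 for Sbno2, chr3:96293920-96294219 for Fcgr1 and chr7:28379179-28379478 for Zfp36, all on the minus strand.
Socs3: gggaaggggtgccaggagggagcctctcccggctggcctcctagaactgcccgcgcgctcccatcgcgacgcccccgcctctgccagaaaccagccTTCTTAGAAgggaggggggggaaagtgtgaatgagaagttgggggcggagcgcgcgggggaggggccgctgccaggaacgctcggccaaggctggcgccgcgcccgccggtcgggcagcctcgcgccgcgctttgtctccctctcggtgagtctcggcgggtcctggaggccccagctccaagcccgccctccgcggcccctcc
Sbno2, upstream start: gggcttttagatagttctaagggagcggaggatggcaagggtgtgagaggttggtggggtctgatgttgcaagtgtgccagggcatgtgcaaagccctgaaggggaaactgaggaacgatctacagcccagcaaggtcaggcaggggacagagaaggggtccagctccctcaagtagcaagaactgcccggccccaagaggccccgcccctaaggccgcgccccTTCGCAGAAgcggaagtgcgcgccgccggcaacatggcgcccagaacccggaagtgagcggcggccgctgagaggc
Sbno2, downstream start: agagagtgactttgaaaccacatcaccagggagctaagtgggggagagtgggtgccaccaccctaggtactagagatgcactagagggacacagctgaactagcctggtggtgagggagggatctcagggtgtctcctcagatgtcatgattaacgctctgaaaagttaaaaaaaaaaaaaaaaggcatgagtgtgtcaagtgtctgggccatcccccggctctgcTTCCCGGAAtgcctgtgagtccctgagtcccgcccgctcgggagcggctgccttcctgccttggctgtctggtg
Fcgr1: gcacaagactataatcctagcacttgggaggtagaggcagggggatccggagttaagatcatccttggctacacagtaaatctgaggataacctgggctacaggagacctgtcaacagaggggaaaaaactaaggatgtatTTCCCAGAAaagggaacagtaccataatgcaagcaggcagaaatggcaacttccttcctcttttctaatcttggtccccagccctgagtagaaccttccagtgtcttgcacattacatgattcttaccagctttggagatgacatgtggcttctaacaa
Zfp36: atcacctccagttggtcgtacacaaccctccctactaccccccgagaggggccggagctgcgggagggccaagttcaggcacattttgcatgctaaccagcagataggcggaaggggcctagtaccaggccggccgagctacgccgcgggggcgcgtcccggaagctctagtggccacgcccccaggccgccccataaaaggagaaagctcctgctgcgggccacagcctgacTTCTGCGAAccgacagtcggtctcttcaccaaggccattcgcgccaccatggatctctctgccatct

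The match began 154 bases before the start in Socs3, 26 and 24 in Sbno2, 109 in Fcgr1 and 17 in Zfp36. Socs3, the gene of the 4 that rose most, has 1 match in this window, as do the others. Zfp36, an RNA-binding protein that speeds the decay of cytokine messages, went from 103 ± 3.58 to 194 ± 2.34 TPM (0.90 ± 0.03).

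Fc receptors, which bind the constant part of antibodies, were higher in all 7 tested members of 9 listed, with a median of 0.86. The inhibitory receptor Fcgr2b was at 158, 147, 150 and 148 TPM in M0 and 452, 466, 461 and 461 TPM with IL-10. Replicates of a group lay close together and the groups far apart (log2 1.60 ± 0.03). The high-affinity activating receptor Fcgr1 went from 88.8 ± 1.90 to 191 ± 4.07 TPM (1.09 ± 0.03), and Fcrls, an Fc receptor-like gene, from 29.9 ± 0.806 to 65.3 ± 3.11 TPM (1.10 ± 0.04). Both inhibitory and activating receptors were among the rises, since Fcgr3 (0.51) and Fcgr4 (0.86), named after their values were seen, were called higher as well.

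Complement genes were called higher in 8 and lower in 3 of 16 tested (20 listed). C4b, counted as higher, entered through the IL-10 libraries alone. C1qa, a chain of the C1q recognition molecule, was at 231, 236, 233 and 222 TPM in M0 and 785, 776, 801 and 787 TPM with IL-10. The spread within each group was small beside the gap (log2 1.77 ± 0.03, adjusted p = 1.3e-10 in limma). The other chains, named after their values were seen, rose less: C1qb from 1228 ± 10.4 to 2557 ± 45.6 TPM (1.06) and C1qc from 866 ± 25.9 to 1724 ± 36.0 TPM (0.99). C4b, a component of the classical pathway, was at 0.170 ± 0.167 TPM in M0 and rose by 1.75 ± 0.14. Of the chains of the iC3b receptors, Itgam (CD11b) rose by 0.91 ± 0.02, while Itgax (CD11c) fell by 0.80 and their partner Itgb2 fell by 0.50 on the log2 scale. Properdin, Cfp, fell by 0.34, and averaged 54.9 TPM in M0, 43 in IL-10 non-phagocytic, 59.6 in IL-10 Tconv-phagocytic and 62.7 in IL-10 Treg-phagocytic macrophages with all 28 libraries scaled together. The IL-10 groups were not tested against each other.

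RNA of genes for MHC class II presentation and its control was mostly higher: 10 of 14 tested genes (17 listed) were higher and none lower, with a median of 0.48. H2-Ab1, the β chain of I-A, stood at 435, 427, 440 and 436 TPM in M0 and 720, 675, 715 and 735 TPM with IL-10 (0.71 ± 0.03). Cd74, the invariant chain, went from 1314 ± 34.7 to 2269 ± 28.7 TPM (0.79 ± 0.02), and the class II transactivator Ciita from 3.88 ± 0.507 to 7.76 ± 0.229 TPM (0.85 ± 0.09). The largest rise of the list, counted among the 10, was March1, a ubiquitin ligase that removes class II and CD86 from the cell surface (1.5 ± 0.04). Dendritic cell markers, of cells rich in class II, also had a higher sum, 23.42 to 27.71 TPM with IL-10 against 13.21 to 15.88 TPM in M0. Batf3 made up most of it, at 19.2 TPM with IL-10 and 10.3 in M0 with all 28 libraries scaled together. Of 10 such markers 2 were tested and 1, Batf3, was called. The part of dendritic cells in the class II levels was not tested. MHC class I genes were split, with 9 of 20 higher and 4 lower and a median of 0.03 (5 higher in the fit of all 28 libraries). Their transactivator Nlrc5 rose by 0.83 ± 0.09 and H2-Q7 by 0.61 ± 0.04. H2-D1 and H2-Q6 fell by 0.31 and 0.32, although reads of these similar genes may be split between copies. With all 28 libraries scaled together H2-Q6 averaged 18.9 TPM in M0 and 14.8 in IL-10 non-phagocytic macrophages. It averaged 18 in IL-10 Tconv-phagocytic and 21.2 in IL-10 Treg-phagocytic macrophages, which was not tested.

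Costimulatory ligands and checkpoint genes did not move as 1 group, with 8 of 18 higher and 5 lower. Without M0 replicate 4, 5 were higher, without IL-10 replicate 3 or 4, 3 were lower, and the fit of all 28 libraries called 4 of 19 higher and 2 lower. Cd86 was at 26.0, 24.2, 26.2 and 24.0 TPM in M0 and 12.5, 16.5, 14.2 and 13.9 TPM with IL-10, without overlap (-0.78 ± 0.08). Cd80, the other CD28 ligand, fell by 0.67 (adjusted p = 0.00125 in limma, 0.139 in the fit of all 28 libraries), and the checkpoint receptor Havcr2 (TIM-3) fell by 0.93. Tnfsf9, the 4-1BB ligand, rose by 1.43 ± 0.10 and Nectin2, a ligand of TIGIT, by 0.92 ± 0.05. Cd40 had 9.02, 4.55, 4.26 and 5.79 TPM in M0 and 8.47, 14.2, 10.7 and 7.99 TPM with IL-10, so that the groups overlapped. Its adjusted p was 0.0334 in limma, and leaving out M0 replicate 2, 3 or 4 or IL-10 replicate 2 or 3 gave values between 0.0645 and 0.0876.

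Cytokine genes, inflammatory and other, went both ways: 5 of 18 tested (28 listed) were higher (3 of 17 without IL-10 replicate 3) and 8 lower. Il10, counted as higher, entered through the IL-10 libraries alone. Il1b was at 1.95, 3.18, 2.68 and 1.97 TPM in M0 and 12.2, 15.9, 13.7 and 14.1 TPM with IL-10. The IL-10 group was 5.7 times higher without overlap (2.13 ± 0.13). Tnf moved the other way, from 8.45, 6.64, 7.42 and 7.33 TPM to 2.15, 3.45, 3.25 and 3.16 TPM (-1.09 ± 0.12). The macrophage growth factor Csf1 fell by 0.85 and Ebi3, a subunit of IL-27 and IL-35, fell by 0.68 on the log2 scale. Spp1, osteopontin, rose from 1258 ± 28.6 to 2286 ± 46.8 TPM (0.86 ± 0.02). Il6 had at most 0.553 TPM in any of the 8 libraries and Nos2 at most 0.0997, so neither was tested.

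Inflammasome genes were called higher in 6 and lower in 3 of 16 tested. Besides Il1b, the pyrin gene Mefv (1.78 ± 0.08) and the lipopolysaccharide-sensing caspase Casp4 (1.25 ± 0.06) were higher. Nlrp3, the sensor of the best known inflammasome, fell by 0.68 and the channel gene Panx1 fell by 1.03. Toll-like receptors and their adaptors were higher in 8 and lower in 2 of 20. Without M0 replicate 1 or 3 or IL-10 replicate 2 or 4, 1 was lower, and the fit of all 28 libraries called 4 higher and 1 lower. Tlr2 (1.15 ± 0.05), its partner Tlr1 (0.99 ± 0.08) and the adaptor Myd88 (0.90 ± 0.04) led the rises, while Cd14 was lower.

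Chemokines were higher in 5 and lower in 1 of 11 tested genes (24 listed). Ccl8, counted as higher, entered through the IL-10 libraries alone. Pf4, platelet factor 4, was at 197, 178, 186 and 195 TPM in M0 and 1004, 1006, 1064 and 1033 TPM with IL-10. The groups were separated by a ratio of 5.43 (log2 2.44 ± 0.04). Ccl8, a monocyte chemoattractant, was at 0, 0.221, 0.281 and 0.223 TPM in M0 and 13.3, 11.6, 9.24 and 9.98 TPM with IL-10. Cxcl16, a chemokine that also binds oxidized lipid, rose by 0.84 ± 0.03, and Ccl3 was the 1 member that fell, by 0.70. Receptors for chemoattractants were higher in 6 and lower in 2 of 13. Ccr2, the receptor that marks recently recruited monocytes, went from 7.62, 6.46, 7.53 and 6.73 TPM to 28.4, 31.2, 30.7 and 28.6 TPM. The platelet-activating factor receptor Ptafr and Ccrl2 fell by 0.54 and 0.55.

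Interferon-stimulated genes of the type I response were split, with 8 of 31 higher, 9 lower and a median of -0.12. Rtp4, Cmpk2 and Ifit3 fell by 0.84, 0.82 and 0.80 on the log2 scale and Ifi27l2a rose by 0.50. In the fit of all 28 libraries 1 member was called higher and 7 lower, and without replicate 1 of both groups 4 were higher. Of 16 tested genes of the IFN-γ response, 7 were higher and 2 lower, the latter count being 1 without M0 replicate 1, 2 or 3 or IL-10 replicate 2 or 4. Of the 16, 1 entered through the IL-10 libraries alone. The guanylate-binding proteins differed among themselves: Gbp7, Gbp3 and Gbp2 rose by 1.11, 0.71 and 0.67, and Gbp8 fell from 13.6 ± 0.957 to 5.03 ± 0.640 TPM (-1.28 ± 0.09). These paralogs can share reads.

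**Figure D3:**
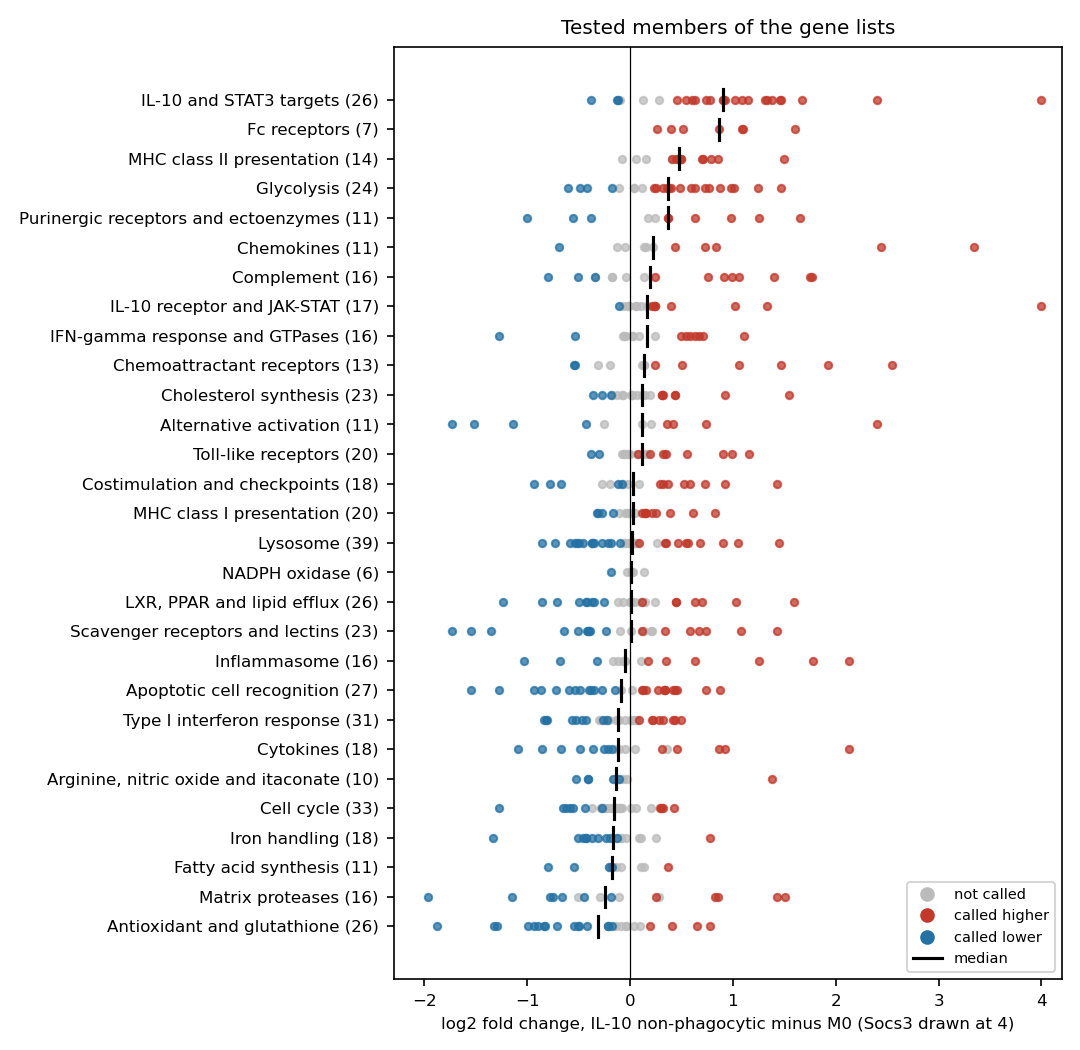
Log2 fold changes (IL-10 non-phagocytic minus M0) of the tested members of each pathway list, 1 point per gene, ordered by the list median (black bar), with the number tested in brackets. Red points were called higher, blue lower and grey not called, Socs3 is drawn at 4, and the medians run from -0.31 (antioxidant and glutathione) to 0.90 (IL-10 and STAT3 targets).

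Scavenger receptors and lectins, which bind modified lipids, sugars and microbes, were higher in 7 and lower in 10 of 23 tested genes (29 listed). Besides Clec7a and Cd36, Siglec1 (sialoadhesin) fell from 57.3, 58.0, 61.1 and 59.2 TPM to 22.4, 21.7, 23.3 and 22.6 TPM (-1.35 ± 0.04). Rises were led by Clec4a3 (1.43 ± 0.05), Clec4a1 (1.08 ± 0.06) and the mannose receptor Mrc1, which went from 55.2, 53.1, 52.3 and 52.3 TPM to 87.9, 92.1, 91.3 and 86.9 TPM. The scavenger receptor Msr1 had 87.5 ± 4.31 and 95.4 ± 5.88 TPM, with overlapping groups and an adjusted p of 0.102 in limma. Cd163, the haemoglobin receptor often used to mark IL-10 macrophages, held 0.199 to 0.375 TPM in M0 and 0.140 to 0.268 TPM with IL-10 and was not tested. Marco reached at most 1.29 TPM in any library, and Arg1, an IL-4 response gene, at most 1.40.

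Genes for recognizing apoptotic cells were called in 25 of 27 tested (31 listed), 12 higher and 13 lower, against 30.7% called over all genes. Bridging molecules were among the rises: Pros1 (protein S), which links phosphatidylserine to TAM receptors, rose by 0.87 ± 0.10 and Thbs1 by 0.74 ± 0.03. The TAM receptor Axl fell from 46.9, 44.7, 59.5 and 52.4 TPM to 22.3, 25.5, 25.5 and 31.3 TPM (-0.94 ± 0.11). With all 28 libraries scaled together Axl averaged 46.4 TPM in M0, 23.7 in IL-10 non-phagocytic, 55.5 in IL-10 Tconv-phagocytic and 58.6 in IL-10 Treg-phagocytic macrophages, and differences among the IL-10 groups were not tested. Its relative Mertk had 20.6 ± 0.688 and 22.9 ± 1.04 TPM (0.15 ± 0.05, adjusted p = 0.0423 in limma). Leaving out M0 replicate 2, 3 or 4 or IL-10 replicate 1, 2 or 4 gave Mertk adjusted p between 0.0649 and 0.107. The integrin chain Itgb3 fell by 1.27 and its relative Itgb5 rose by 0.46. The IL-10 libraries hold cells sorted as non-phagocytic, and whether these levels moved with uptake was not tested.

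Lipid handling genes were likewise divided (7 of 26 higher, 9 lower, median 0.01). Lipoprotein lipase, Lpl, was at 1038 ± 4.72 TPM in M0 and 439 ± 4.45 with IL-10 (-1.24 ± 0.02), and the lysosomal acid lipase Lipa fell by 0.86. Apolipoprotein genes rose: Apoc2 by 1.59 ± 0.07, and Apoe from 16567, 18971, 17375 and 19422 TPM to 24243, 23419, 24870 and 26100 TPM (0.45 ± 0.05). The cholesterol exporter Abca1 rose from 35.2 ± 0.965 to 55.1 ± 1.61 TPM and the phospholipid transfer protein Pltp by 1.03 ± 0.03. Of 23 tested cholesterol synthesis genes 7 were higher, led by Pmvk, a mevalonate pathway kinase (1.54 ± 0.08). The number lower was 3, but 1 without M0 replicate 1, 3 or 4 or IL-10 replicate 2 or 3, and 0 in the fit of all 28 libraries. Angptl4, an inhibitor of lipoprotein lipase, fell by 0.71.

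RNA of glycolysis genes was mostly higher, with 16 of 24 tested genes higher, 4 lower and a median of 0.37. Hif1a, the hypoxia-inducible factor that drives many of these genes, was at 34.4, 31.4, 30.8 and 30.4 TPM in M0 and 90.9, 91.4, 94.0 and 82.7 TPM with IL-10 (1.47 ± 0.05). The lactate exporter Slc16a3 rose by 1.24 ± 0.06 and phosphofructokinase Pfkl by 1.01 ± 0.07. The 4 members that fell were isoforms of enzymes whose other isoforms rose: Ldhb (-0.61), Hk3 (-0.48), Eno2 (-0.42) and, named after its value was seen, Hk1 (-0.18).

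Of 26 tested antioxidant and glutathione genes 16 were lower and 4 higher, with a median of -0.31. Catalase, Cat, which removes hydrogen peroxide, was at 421, 454, 452 and 447 TPM in M0 and 182, 185, 174 and 180 TPM with IL-10. All 4 IL-10 libraries were far below M0 (-1.29 ± 0.03). Srxn1, sulfiredoxin, fell from 108 ± 3.12 to 42.5 ± 1.78 TPM (-1.32 ± 0.04). Rises were led by Hmox1 and Sod2. Hmox1, haem oxygenase, was at 249, 247, 247 and 259 TPM in M0 and 421, 435, 440 and 427 TPM with IL-10 (0.78 ± 0.03). Mitochondrial superoxide dismutase Sod2 rose by 0.65 ± 0.06 and glutathione reductase, Gsr, by 0.40 ± 0.05 (adjusted p = 0.102 for Gsr in the fit of all 28 libraries).

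**Figure D4:**
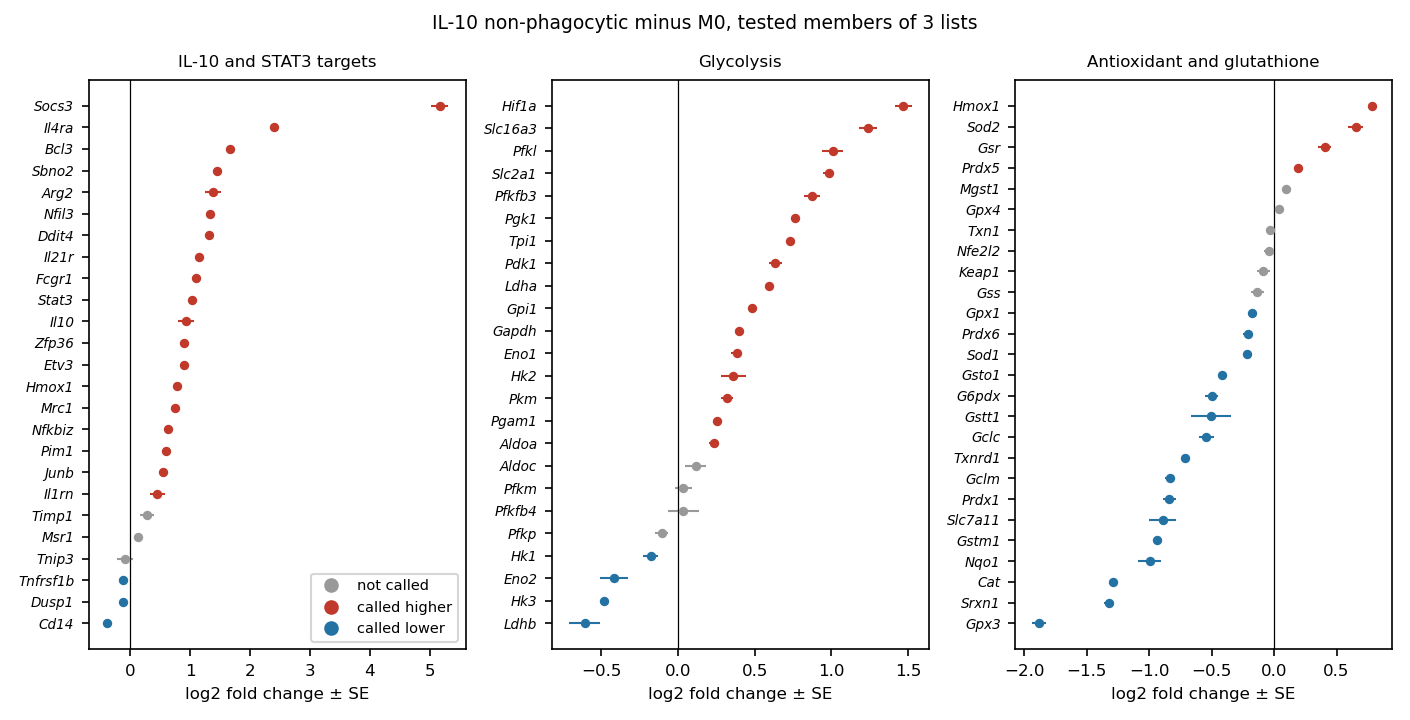
Log2 fold change with its SE (bars) for tested members (1 target gene is not drawn) of the IL-10 and STAT3 target, glycolysis and antioxidant lists, IL-10 non-phagocytic minus M0. Red points were called higher, blue lower and grey not called; 20 of 26, 16 of 24 and 4 of 26 members were higher.

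Iron genes were mostly lower, 10 of 18 tested, with Hmox1 the 1 member that rose (2 rose without replicate 1 of both groups). The iron exporter Slc40a1 (ferroportin) fell from 27.1, 25.8, 28.4 and 27.1 TPM to 10.2, 10.3, 9.74 and 10.2 TPM (-1.34 ± 0.05). Steap3, an endosomal ferrireductase, and Ncoa4, the receptor that delivers ferritin to lysosomes, fell by 0.50 and 0.46. With all 28 libraries scaled together Ncoa4 averaged 118 TPM in M0 and 85.4 in IL-10 non-phagocytic macrophages. It averaged 114 in IL-10 Tconv-phagocytic and 130 in IL-10 Treg-phagocytic macrophages, and differences among the IL-10 groups were not tested. The ferritin chains Fth1 and Ftl1, named after their values were seen, each fell by 0.43. Among lysosomal genes 10 of 39 were higher and 14 lower: the proteases Ctsc (1.45 ± 0.05) and Lgmn (0.91 ± 0.02) and the thioesterase Ppt1 (1.05 ± 0.04) rose, while Lipa, the proton pump subunit Atp6v0d2 (-0.73 ± 0.04) and Gpnmb (-0.58 ± 0.03) fell.

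Matrix proteases were higher in 5 and lower in 7 of 16. Mmp8, neutrophil collagenase and also a neutrophil marker, went from 6.56, 6.20, 6.84 and 5.66 TPM to 19.1, 21.0, 20 and 18.9 TPM, and Mmp14 rose by 1.42 ± 0.06. Mmp13 fell by 1.14 and urokinase, Plau, by 0.78 on the log2 scale. With all 28 libraries scaled together Plau averaged 19.8 TPM in M0 and 11.1 in IL-10 non-phagocytic macrophages. It averaged 16.3 in IL-10 Tconv-phagocytic and 19.4 in IL-10 Treg-phagocytic macrophages, which was not tested. Ectoenzymes of extracellular nucleotides also diverged. Bst1 (1.65 ± 0.09) and Cd38 (1.25 ± 0.15), which consume NAD, rose, and Entpd1 (CD39) fell from 137, 136, 129 and 138 TPM to 59.5, 66.3, 75.3 and 67.3 TPM. Cd38 entered through the IL-10 libraries alone.

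Of 20 tested macrophage identity genes (21 listed) 13 were higher and 5 lower. The rises were led by Fcgr1 and Itgam, and the falls by the lysozyme gene Lyz1 (-0.69), Cd14 (-0.38) and Lyz2 (-0.35), another lysozyme gene and the most abundant member, at 12838 and 16352 TPM. Genes that mark other cells were read beside these results. Of 7 tested neutrophil markers (14 listed) 3 were higher, Mmp8, Prtn3 (1.08) and the G-CSF receptor Csf3r (0.77), and 2 lower, Ngp (-0.75) and S100a9 (-0.50). Their sum was 135.3 to 149.4 TPM with IL-10 and 104.1 to 108.4 TPM in M0. Of 10 dendritic cell markers 2 were tested, and Batf3, a transcription factor of these cells, was higher (0.85 ± 0.08). B cell markers overlapped, at 23.44 to 25.78 and 16.42 to 30.8 TPM. Of 10 tested stromal markers (14 listed) 9 were lower, and the sum over the list was 129.1 to 139.8 TPM with IL-10 against 182.4 to 219 TPM in M0. The fit of all 28 libraries called 3 of 11 lower. Lum was at 0 in all 8 libraries. Osteoclast markers were lower in 5 of 8 (3 in the fit of all 28 libraries), including Itgb3 and Atp6v0d2 described above. Of 20 tested T cell markers 1 was higher (7 without M0 replicate 1) and 2 lower, the latter being Il7r (96.1 ± 2.5 against 160 ± 4.75 TPM in M0) and Cd28. Cd3e, of the T cell receptor complex, had 3.61, 1.38, 2.36 and 1.47 TPM in M0 and 3.16, 4.37, 3.44 and 4.87 TPM with IL-10. Foxp3, the Treg factor, had 2.37, 1.17, 1.28 and 1.02 TPM in M0 and 1.83, 3.60, 4.93 and 2.33 TPM with IL-10. Both overlapped between the groups, with adjusted p of 0.0407 and 0.0486 in limma. Without any 1 of replicates 2, 3 and 4 of either group these were between 0.0581 and 0.103 for Cd3e and between 0.0524 and 0.115 for Foxp3. With replicate 1 of both groups left out, 6 of 19 tested T cell markers were higher. Mast cell genes were near 0, with 7 of 9 at 0 in all 8 libraries. In bulk RNA, fewer cells of a type and less RNA per cell cannot be told apart, and the part of other cells in the results was not tested.

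Immediate early genes, which respond to stress and to handling, summed to 2408 to 2487 TPM with IL-10 and 2155 to 2230 TPM in M0. Of 20 tested, 9 were higher, led by Ier3 (1.29 ± 0.03), Klf2 and Fosl2 (1.05 each), and 7 lower, led by Egr1, Myc and Egr2 (-1.14). Heat shock genes summed to 2661 to 2697 TPM with IL-10 and 2943 to 3083 TPM in M0, with 6 of 16 lower (3 in the fit of all 28 libraries). None was higher, but 1 was without M0 replicate 1. The part of sorting or handling in these levels was not tested. Of 33 tested cell cycle genes 4 were higher and 7 lower, a share near the 30.7% over all genes, and Ccnd1, cyclin D1, fell by 1.27.

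The leading genes were also read in the other groups, with all 28 libraries scaled together, which moves the levels slightly. Saa3 averaged 12.4 ± 2.98 TPM in M0, 2790 ± 73.4 in IL-10 non-phagocytic, 3230 ± 61.7 in IL-10 Tconv-phagocytic and 2880 ± 44.8 in IL-10 Treg-phagocytic macrophages, and 128 to 132 TPM in the 3 IFN-γ groups. Socs3 had 133 to 159 TPM in the IL-10 groups and 16.5 to 19.0 TPM in the IFN-γ groups, against 3.46 in M0. Il4ra showed another order: 178 to 220 TPM in the IL-10 groups, 36.2 to 45.3 in the IFN-γ groups and 41.1 in M0, so that the last 4 means lay close together. Of the genes lower with IL-10, Mmp12, Cd36 and Cat were below M0 in every cytokine group, with Mmp12 at 772 ± 20 TPM in M0, 197 ± 5.89 in IL-10 non-phagocytic and 200 ± 11.0 in IFN-γ non-phagocytic macrophages. Clec7a was low in the 3 IL-10 groups (47.3 to 68.3 TPM), and the IFN-γ groups (142 to 179 TPM) lay around M0 (160 ± 6.23). The Tconv- and Treg-phagocytic groups pool libraries with different T cell dyes. These levels are given as a description, and differences among the other groups were not tested.

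**Figure D5:**
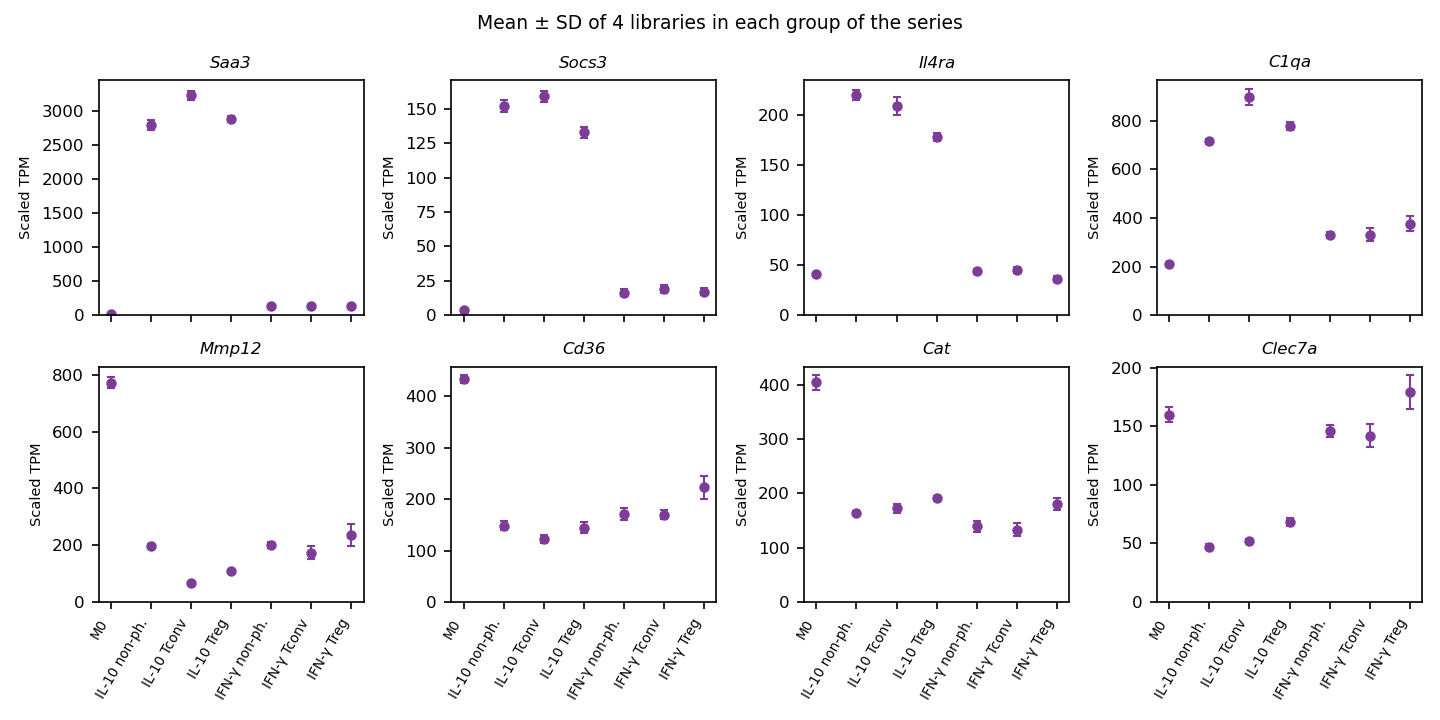
Mean scaled TPM with SD (bars) of 4 libraries in each of the 7 groups of the series for 8 genes, on linear axes that start at 0. Here non-ph. means non-phagocytic. The Tconv and Treg groups pool libraries with different T cell dyes, so their SD includes any difference between dyes. Saa3, Socs3, Il4ra and C1qa are highest in the 3 IL-10 groups, Mmp12, Cd36 and Cat are highest in M0, and Clec7a is lowest in the IL-10 groups.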

How the data were processed

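Poly(A) RNA of wild-type mouse macrophages was extracted with RNAiso PLUS, cleaned on NucleoSpin columns and made into libraries with the NEBNext Ultra II Directional kit, per the labels' protocols. The deposited values are TPM per gene made by the authors with STAR and RSEM on mm10, per the submitters' processing notes. Versions, annotation and strand setting are not given in the sources used here. Depth cannot be read directly from TPM. It was estimated relative to the deepest library from 14568 genes, of whose low values 88.3 to 90.6% lay within 0.15 reads of a whole number (30% by chance); 1 read on a transcript of 1000 nt of effective length was worth 0.0642 to 0.127 TPM. No count test was run.

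Symbols and positions came from GENCODE vM21 (GRCm38) for 55227 of 55487 gene IDs, and 260 had none. A gene was kept when 4 or more of the 8 libraries had 1 TPM or more. TPM was divided by a trimmed mean of ratios (30% of ratios and 5% of mean levels trimmed from each end), 1 was added and log2 taken, and limma 3.58.1 in R 4.3.3 was fitted with a mean-variance trend to the 4 IL-10 non-phagocytic and 4 M0 libraries. Calls had a Benjamini-Hochberg adjusted p under 0.05. A log2 fold change of TPM plus 1 understates the change of low genes. The fit was tested on simulated data.

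Named genes were, in each direction, the 15 leading calls by log2 fold change whose groups did not overlap, whose higher mean reached 5 TPM and whose symbol was not that of a predicted gene; up to 3 called members per direction from each of 41 gene lists; and 32 fixed genes. Genes outside this rule are marked where named, except Zfp36, named for its promoter match, and Lum, named for its level of 0. The comparison and the lists were chosen with earlier results of these data known. Replicate numbers are shared between the groups, but the labels do not say what a number marks, so the fit has no block. Same-numbered libraries deviated together with r of 0.113, 0.072, 0.005 and 0.015. Alternatives changed the pseudocount, the filter, the scaling, the libraries fitted, the weights, the trend and the block. Some genes that the rule names are not reported here.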

Additional observations from a re-analysis of the deposited data

Results flagged for a closer look

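Within the 4 libraries of a group, a library was marked when it lay so far from the other 3 that the gap took most of the group's range. Chance marks about 1 in 20 groups, and 17 of 394 groups (2 groups for each of 197 named genes) were marked here. In each of the 17 genes the IL-10 and M0 libraries did not overlap, against 32.4% of all tested genes. Apart from the fixed genes, the naming rule took only called genes, and for the leading ones it required no overlap. The lack of overlap is therefore not independent evidence.

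IL-10 replicate 4 was marked 4 times, each time as the highest. It held 25.4 TPM of Cd300ld5 (others 19.7 to 20.4), 91 TPM of H2-Q7 (others 83.9 to 84.6), 49.9 TPM of the properdin gene Cfp (others 46.3 to 46.7) and 49.6 TPM of Bst1 (others 44 to 44.3). IL-10 replicate 2 was the highest for Ppt1 at 133 TPM and Ncoa4 at 105 TPM and the lowest for Plau at 11.5 TPM. IL-10 replicate 1 was the lowest for Mgll at 0.684 TPM (others 1.41 to 1.49).

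In M0, replicate 1 was the highest for Ifitm1 at 5.96 TPM, Wfdc17 at 74.9 TPM and C4b at 0.417 TPM. M0 replicate 2 was the highest for Tox2 at 8.02 TPM and Sbno2 at 53.4 TPM and the lowest for Havcr2 at 3.59 TPM and Ccl3 at 94.4 TPM. M0 replicate 4 was the highest for Gsta3 at 25.7 TPM, and M0 replicate 3 the lowest for Sod2 at 61.3 TPM.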

How the results depend on the processing

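Of 3648 genes called, 255 had a log2 fold change of at least 1. A fit of all 28 libraries called 1775 genes, of which 1764 were among the 3648. It took 1 spread for all groups, and the groups that had engulfed T cells were split further by T cell dye. The cause of the lower count was not tested. Leaving out 1 library at a time gave 3125 to 3430 calls, and leaving out replicate 1 of both groups, chosen after the data were seen, 3131. The other planned settings gave 3231 to 3657. Among named genes that were tested, 164 of 197 kept their call and direction in each alternative run that gave them a value, and no direction reversed. Some runs dropped genes, and the filter of 5 TPM gave a value for 172. The 33 that did not included Zbp1, Oas2, Gbp9, Hmgcs1, Tlr7, Tk1, Me1, Ass1 and Hsp90aa1, and Cd80, Dusp1 and Fn1 lost theirs in the fit of all 28 libraries alone.

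With the replicate number as a block, 3341 genes were called, 3165 of them shared with the fit without it. The labels do not say whether the numbers pair the libraries. Replicates 1 and 2 correlated best with their own number, replicates 3 and 4 did not. Replicate 1 of both groups lay apart on the second principal component (17.04 in M0 and 14.32 with IL-10). Whether same-numbered libraries shared an animal or day was not tested. Among the named genes the block ended the calls of Cd3e, Cd40, Foxp3, Hmgcs1, Hsp90aa1, Il10rb, Mertk, Oas2 and Tk1, and it added Msr1 (adjusted p = 0.0486 in limma).

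Relative depth limits what can be said of genes near 1 TPM, above all in IL-10 replicate 1.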

Other observations

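Gene families outside the lists were looked at after their values were seen. The Ms4a genes, which encode membrane proteins of myeloid and lymphoid cells, were higher in 6 and lower in 1 of 8 tested. Ms4a4a, a macrophage member, went from 27.9 ± 3.23 to 152 ± 8.14 TPM (SD, n = 4 libraries in each group), a log2 fold change of 2.41 ± 0.08 (SE). Tmem176a and Tmem176b, neighbouring genes for intracellular cation channels of antigen-presenting cells, rose from 14.1 ± 1.45 to 68.2 ± 8.12 TPM and from 28.3 ± 2.72 to 146 ± 2.23 TPM. The inhibitory receptor gene Pirb, which binds MHC class I, went from 206 ± 2.92 to 675 ± 10.1 TPM (1.71 ± 0.02), and the related activating receptor Pira2 fell by 0.77. Of 4 signal-regulatory protein genes tested, Sirpb1c (1.69 ± 0.05), Sirpb1a (1.46 ± 0.15) and Sirpb1b (0.62) rose and the CD47 receptor Sirpa fell by 0.08. Cd300 genes were higher in 6 and lower in 2 of 8. Members of the Pir, Sirpb1 and Cd300 families are near-identical in part and may share reads.

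Genes of the cytosolic ribosome moved by small steps in 1 direction, with 59 of 82 tested higher, none lower and a median log2 fold change of 0.14. Their number called ranged from 38 to 67 over the alternatives, and was 58 without scaling and 57 with median-of-ratios scaling. Of 15 genes encoded by the mitochondrial genome 9 were lower and 1 higher, with a median of -0.27, and 8 and 9 were lower under those 2 scalings. Pseudogenes of both kinds can take reads from these genes, which was not tested.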
